A study of Mus musculus with 8 samples.

Results

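The 8 genes described here encode enzymes of collagen crosslinking. They are 5 lysyl oxidases, which also act on elastin (Lox, Loxl1, Loxl2, Loxl3 and Loxl4), and 3 lysyl hydroxylases (Plod1, Plod2 and Plod3). They were taken by gene name from a table of 35896 genes, and all 8 were among the 19022 genes that passed the filter on low counts. RNA-seq had been carried out on molar tooth germs of BRE-GFP mouse embryos, which carry a fluorescent reporter of BMP-Smad signalling. All germs, controls included, were grown in vitro in medium with serum for 1 day. The groups were E12.5 germs with the solvent DMSO, E12.5 germs with SB431542, which blocks the type I receptors for TGF-beta and activin, E12.5 germs with SIS3, which blocks Smad3, and E13.5 germs with the solvent. The sources used here give neither doses nor the number of embryos or germs in a sample. Each group has 2 deposited columns of estimated counts.

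Collagen crosslinks are made in 2 steps. Inside the endoplasmic reticulum, lysyl hydroxylases add hydroxyl groups to lysines of procollagen: Plod1 acts mainly on the triple helix, Plod2 on the telopeptides at the chain ends, and Plod3 also has a glycosyltransferase activity. Outside the cell, the copper-dependent lysyl oxidases convert lysines and hydroxylysines into aldehydes that then react with neighbouring chains. Lox is secreted as a proenzyme that the procollagen proteinase Bmp1 cleaves, Loxl1 is tied to elastic fibres, and Loxl2, Loxl3 and Loxl4 carry scavenger receptor domains in place of a long propeptide. The tooth germ at these stages is a bud of epithelium in condensing, neural-crest-derived mesenchyme, and the mesenchyme is the main source of fibrillar collagen.

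Some facts on the libraries bear on every value. Outside the SIS3 group, the totals of paired columns differed by at most 0.00749%. Over protein-coding genes with 1 annotated transcript, the median squared difference between paired columns was 1.08, 1.15 and 1.15 times that of dividing 1 set of reads at random, against 8.94 times in the SIS3 pair. Over genes with more transcripts, to which 7 of the 8 members belong, the ratios were 2.26, 2.2 and 1.72 against 12.1, and the largest for a member were 7.66 (Plod2), 8.54 (Loxl3) and 56.9 (Plod3). By the genes with 1 transcript each of those 3 pairs differed by about the sampling noise and was counted as 1 sample, which left 5 libraries of 5995709 to 30975010 counts, with 2 for SIS3. All spread therefore comes from the pair of SIS3 libraries, and nothing in the labels says that these came from separate cultures. The TruSeq kit was used for the SIS3 pair and the SMARTer kit for all others, so the effect of the kit and that of SIS3 cannot be told apart. The 3 comparisons below share the E12.5 DMSO library. The 8 dental mesenchyme markers, among them Msx1, Pax9 and Lhx8, were detected in every library with a summed level of 2280 to 3330 CPM (each count scaled to the library total). In tissue such as this, fewer cells of a type and less RNA per cell cannot be told apart.

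In the annotation GENCODE M21 (GRCm38) the 8 genes are protein-coding and lie on 7 chromosomes. Loxl1 (ENSMUSG00000032334; chromosome 9, 58287738 to 58313186, minus strand) and Plod2 (ENSMUSG00000032374; chromosome 9, 92542223 to 92608428, plus strand) share a chromosome. Lox (ENSMUSG00000024529) lies on chromosome 18 from 52516067 to 52529867, minus strand, and Loxl2 (ENSMUSG00000034205) on chromosome 14 from 69609068 to 69695834, plus strand. Loxl3 (ENSMUSG00000000693) lies on chromosome 6 from 83034173 to 83052562, plus strand. Loxl4 (ENSMUSG00000025185) lies on chromosome 19 from 42593982 to 42612813, minus strand. Plod1 (ENSMUSG00000019055) lies on chromosome 4 from 147909753 to 147936767, minus strand, and Plod3 (ENSMUSG00000004846) on chromosome 5 from 136987019 to 136996648, plus strand.

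The counts of some of these genes are less certain than the rest. Loxl2 shares 46.4% of its 31-mers with other transcripts, chiefly of Gm21451 and Gm16867, a duplicated stretch on the same chromosome. Gm16867 held 37 counts in the E12.5 DMSO library, 24 in SB431542, 7 and 196 in the SIS3 libraries and 500 at E13.5, and Gm21451 held 2 counts in all. Loxl3 overlaps Htra2, and Plod3 overlaps Znhit1, on the opposite strand over 535 and, with a microRNA included, 538 exonic bases, and the sources used here do not say whether reads were counted by strand. Plod2 overlaps Gm38391 on the opposite strand over 346 exonic bases and shared 5.87% of its 31-mers, and Gm38391 has no counts of its own here. Plod1 shared 1.34%, Lox and Loxl1 shared under 0.1% of their 31-mers, and Loxl4 shared 0%.

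Of the 8 genes, 3 had an entry in the RefSeq promoter table (GRCm38.p6): Loxl4, Plod1 and Plod3. The 250 bases before their starts are printed, since no other member had an entry. Among the members, Loxl4 spans the widest range of levels here, whereas Plod1 and Plod3 had the most similar profiles of any pair. Capitals mark every match, on either strand, to 6 motifs: CAGAC (the core of the Smad CAGA box), GGCGCC (a GC-rich Smad element), TGANTCA (AP-1), ACGTG (the core of the hypoxia response element), GGGCGG (the GC box) and TATAAA (the TATA box).
Loxl4 (chr19:42612807-42613056, minus strand): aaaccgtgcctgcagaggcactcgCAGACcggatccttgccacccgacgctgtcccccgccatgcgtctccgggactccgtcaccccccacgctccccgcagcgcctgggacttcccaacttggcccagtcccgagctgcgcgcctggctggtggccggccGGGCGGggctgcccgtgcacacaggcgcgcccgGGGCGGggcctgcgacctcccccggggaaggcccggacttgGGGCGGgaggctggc
Plod1 (chr4:147936777-147937026, minus strand): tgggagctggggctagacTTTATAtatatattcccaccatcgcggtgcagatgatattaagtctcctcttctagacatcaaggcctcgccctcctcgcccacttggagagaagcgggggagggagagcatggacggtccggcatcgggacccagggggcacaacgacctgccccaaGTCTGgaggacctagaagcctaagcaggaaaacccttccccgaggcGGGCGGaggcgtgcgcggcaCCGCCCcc
Plod3 (chr5:136986769-136987018, plus strand): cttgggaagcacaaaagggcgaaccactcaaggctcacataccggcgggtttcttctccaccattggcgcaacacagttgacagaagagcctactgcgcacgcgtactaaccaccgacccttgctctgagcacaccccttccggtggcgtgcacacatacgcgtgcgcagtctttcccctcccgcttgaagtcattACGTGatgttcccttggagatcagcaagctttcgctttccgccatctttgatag
The Loxl4 window held 1 CAGAC and 3 GGGCGG, and its GC content was 76%. The Plod1 window held 1 CAGAC, 2 GGGCGG and 1 TATAAA, and the Plod3 window held 1 ACGTG alone. Over the same 250 bases of 32851 promoters, CAGAC occurred in 42.2%, GGGCGG in 32.7%, ACGTG in 16.6%, TATAAA in 12.4%, GGCGCC in 9.59% and TGANTCA in 6.75%, and the last pair had no match in these 3 windows. None of these motifs overlaps another in the printed windows.

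In the E12.5 DMSO library the lysyl oxidase transcripts Loxl2 and Lox were the most abundant members per length. Per length (CPM per kb of merged exons) Loxl2 stood at 43.8, Lox at 40.0, Loxl1 at 30.5 and Plod2 at 25.9. Plod3 followed at 11.9, Plod1 at 7.56, Loxl3 at 3.11 and Loxl4 at 0.659. This order comes from 1 library, and with the longest transcript as the length Plod2 (38.1) stood above Loxl1 (30.5). The SD between the SIS3 libraries was 0.09 to 0.53 on the log2 scale for the 7 members other than Loxl4, so neighbours as close as Loxl2 and Lox are not separated. At E13.5 the order was Loxl1 (71.2), Lox (58.8), Loxl2 (41.3) and Plod2 (21.4).

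Lox, the founding lysyl oxidase, stood at 191 CPM in E12.5 DMSO, 89.2 CPM in SB431542, 48.0 and 45.5 CPM in the SIS3 libraries and 281 CPM at E13.5. Loxl1, the oxidase tied to elastic fibres, stood at 101, 55.5, 6.67 and 5.2, and 235 CPM in the same order. Both genes were thus highest at E13.5, lower in SB431542 than in its control and lowest in the SIS3 libraries. Loxl2, an oxidase also known for its part in basement membrane collagen, stood at 237, 242, 96.7 and 109, and 223 CPM, so that only the SIS3 libraries were apart from the rest. With its duplicated copies added, the Loxl2 sum was 238, 243, 97.9 and 130, and 252 CPM.

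The remaining oxidase transcripts were scarce. Loxl3 stood at 14.3 CPM in E12.5 DMSO, 16.0 CPM in SB431542, 14.8 and 18.9 CPM in the SIS3 libraries and 6.28 CPM at E13.5. It was thus lowest at E13.5, where Lox, Loxl1 and Loxl4 were highest. Loxl4 had 86 counts in E12.5 DMSO (2.78 CPM), 35 in SB431542 (1.24 CPM), 2 and 0 in the SIS3 libraries and 304 at E13.5 (17.4 CPM). For the SIS3 library with 0 counts, 3 counts would be 0.318 CPM, the level this depth allows.

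**Figure D1:**
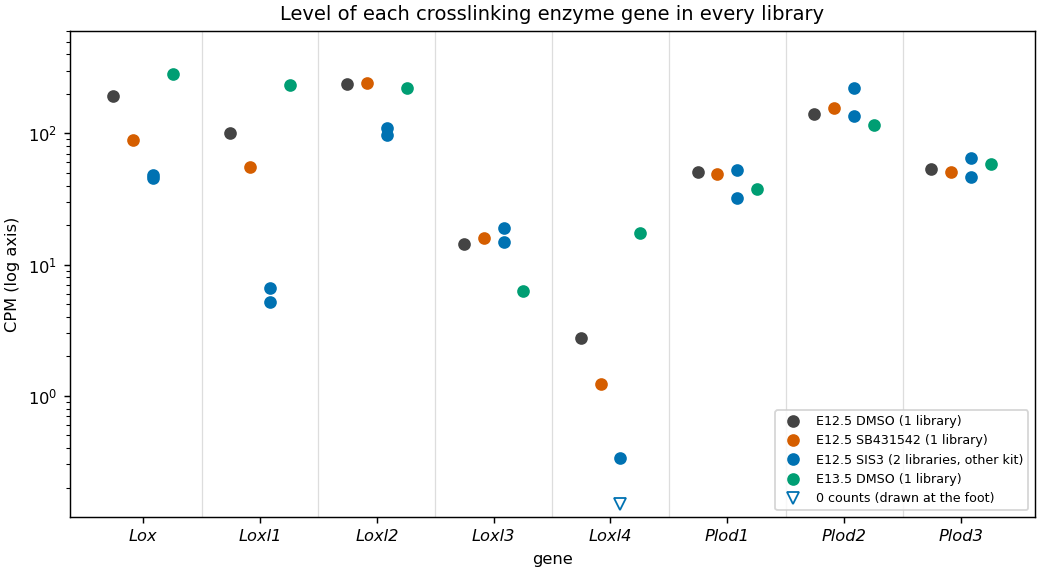
Level of each of the 8 genes in every library, in CPM on a log axis, with colours for the 4 groups and an open triangle for a library at 0 counts. Lox, Loxl1 and Loxl4 spread widely, with the SIS3 libraries lowest (48.0 and 45.5 CPM for Lox) and E13.5 highest (281 CPM), while the 3 Plod genes lie close together across groups.

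Fold changes were tested with the quasi-likelihood F test of edgeR, and p-values were adjusted over all tested genes by the method of Benjamini and Hochberg. The SIS3 libraries were compared with E12.5 DMSO to ask what Smad3 inhibition changed, with the kit included in every value. Lysyl oxidases fell and lysyl hydroxylases did not pass the test: 4 of the 5 oxidases were lower (Lox, Loxl1, Loxl2 and Loxl4), beside 3.03% of all genes, and 0 of 3 hydroxylases were called in either direction. Loxl1 had a log2 fold change of -4.17 (SE 0.33, 95% CI -4.87 to -3.46, n = 2 against 1, edgeR adjusted p = 7.14e-06), which is 18.0-fold lower. Lox stood 4.30-fold lower (log2 fold change -2.10, SE 0.28, edgeR adjusted p = 0.00119). Loxl2 was 2.42-fold lower (-1.27, SE 0.28, edgeR adjusted p = 0.0229). Loxl4 had 2 counts in the SIS3 libraries together against 86, a ratio of 21.4 (95% counting interval 5.75 to 180, counting error only, edgeR adjusted p = 0.0450). Loxl3 stood at 0.17 (95% CI -0.88 to 1.21) and did not pass.

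Among all 19022 genes 0.794% were called higher in the SIS3 libraries and 3.82% in either direction, against 0 and 4 of the 8 members. The median log2 fold change was -2.10 over the 5 oxidases, -0.02 over the 3 hydroxylases and 0.00 over all genes. Lox and Loxl1 kept their calls in all 16 alternatives with a test, with adjusted p of at most 0.0310 and 0.00509. The calls of Loxl2 and Loxl4 were less stable: Loxl2 lost its call in 3 of 16 (adjusted p up to 0.0806) and Loxl4 in 10 of 15 (up to 0.181), among them the removal of any 1 SMARTer column for Loxl4.

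SB431542 was compared with E12.5 DMSO to ask what blocking the TGF-beta and activin receptors changed, within 1 kit. No member passed the test: 0 of 8 were called, beside 0% of all genes in either direction. At an unadjusted p under 0.05, edgeR gave 2 of the 8, Lox and Loxl1, both on the lower side, beside 1.24% of all genes in either direction and 0.668% on the lower side. DESeq2 with adjustment called 0 of the 8, beside 4 of all 19022 genes. Its log2 fold change for Lox was -1.13 (SE 0.41), close to that of edgeR. Lox had a log2 fold change of -1.15 (SE 0.34, 95% CI -1.89 to -0.41, n = 1 against 1, unadjusted p = 0.00489, edgeR adjusted p = 1) and only 3.82% of tested genes had a lower value. Loxl1 stood at -0.91 (SE 0.36, 95% CI -1.69 to -0.13, unadjusted p = 0.0254 in edgeR), with 5.17% of genes below it. Loxl4 stood at -1.21 with a wide interval (95% CI -3.23 to 0.81). Loxl2 (-0.02, 95% CI -0.74 to 0.70) and Loxl3 (0.11, -1.09 to 1.30) lay near 0.

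These SB431542 values rest on 1 library a side. With all 8 columns as replicates, so that columns that differ by sampling noise are treated as independent, Lox (-1.15, edgeR adjusted p = 0.00138) and Loxl1 (-0.90, adjusted p = 0.0114) were called lower, and with the replicate number as a block likewise (adjusted p = 0.00752 and 0.0308). Those fits called 1.46% and 0.468% of all genes. The summed level of 7 dental epithelium markers (Krt5, Krt14, Krt8, Cdh1, Epcam, Trp63 and Shh) was 33.0 CPM in the SB431542 library against 110.4 CPM in its control, and the 6 of them that were tested (all but Shh) lay below 0, none past the test. The 6 osteoblast markers also lay below 0 (summed level 167 CPM against 303 CPM), as did the 5 chondrocyte markers tested, none past the test. Of the 8 dental mesenchyme markers 4 lay below 0. The part of any of these cell types in the Lox and Loxl1 values was not tested.

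The 2 stages in DMSO were compared to describe 1 day of development. The oxidases did not lie on 1 side, and 0 of the 8 members passed the test, beside 5.23% of all genes called, 4.06% higher and 1.17% lower. At an unadjusted p under 0.05 edgeR gave 2 of the 8, Loxl1 and Loxl4, both on the higher side, which is near the background of 24.3% of all genes in either direction and 15.4% on the higher side. DESeq2 with adjustment called 0 of the 8, beside 574 of all 19022 genes. Loxl1 stood at a log2 fold change of 1.25 (SE 0.36, 95% CI 0.47 to 2.04, n = 1 against 1, edgeR adjusted p = 0.0616). Loxl4 had 304 counts against 86, a ratio of 6.25 (95% counting interval 4.90 to 8.04), and a log2 fold change of 2.67 (SE 0.94, edgeR adjusted p = 0.115). Lox stood at 0.59 (95% CI -0.15 to 1.32) and Loxl2 at -0.05 (-0.77 to 0.67). Loxl3 lay on the other side, at -1.16 (95% CI -2.38 to 0.07, edgeR adjusted p = 0.233).

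The Loxl1 value for stage lay near the threshold. It was called higher with DESeq2 size factors in edgeR (1.30, edgeR adjusted p = 0.0475), with trends on GC content and length removed (1.44, adjusted p = 0.0476) and with no filter on low counts (1.21, adjusted p = 0.0277). With the columns as replicates Lox, Loxl1 and Loxl4 were called higher and Loxl3 lower, with or without the replicate block. Those fits called 54.9% and 52.2% of all genes, so 4 of 8 is near the background.

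**Figure D2:**
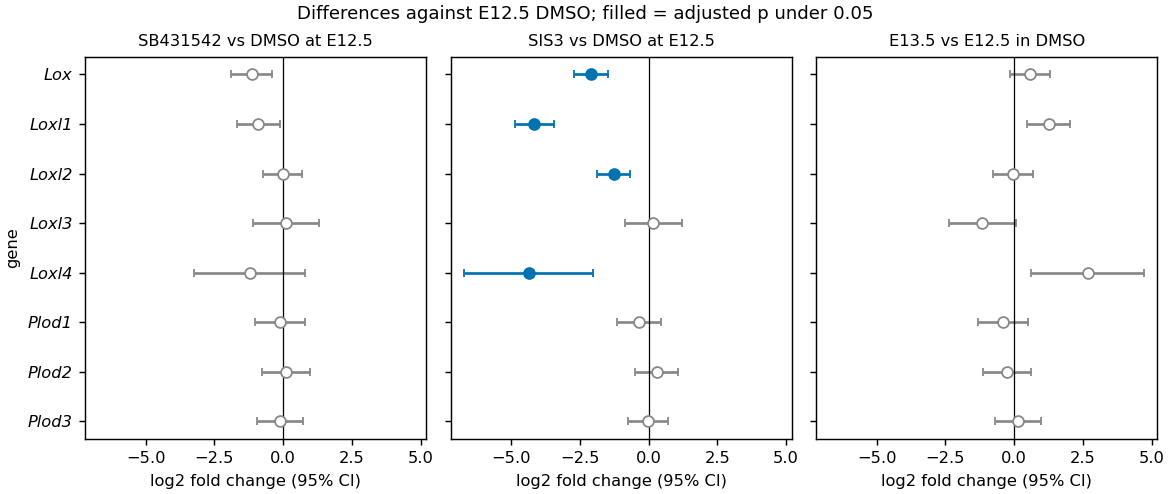
Log2 fold changes of the 8 genes with 95% confidence intervals in the 3 comparisons, all against the E12.5 DMSO library, with filled points for an adjusted p under 0.05. In the middle panel Lox, Loxl1, Loxl2 and Loxl4 lie below 0 (-2.10, -4.17, -1.27 and -4.36), and no point is filled in the panels for SB431542 and stage.

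Among the hydroxylases, Plod2, the telopeptide enzyme, stood at 140 CPM in E12.5 DMSO, 157 CPM in SB431542, 222 and 136 CPM in the SIS3 libraries and 115 CPM at E13.5. Its SIS3 libraries lay 0.75 apart on the log2 scale, with DMSO and SB431542 between them. Plod1, the helical enzyme, stood at 51.1, 49.0, 32.2 and 52.3, and 37.6 CPM. Plod3 stood at 53.7, 51.1, 46.4 and 65.0, and 58.3 CPM. For Plod1 and Plod3, SIS3 library 1 was the lower of the pair and for Plod2 the higher, so the DMSO value fell inside the SIS3 range for Plod1, Plod2 and Plod3 alike.

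No hydroxylase passed the test in any of the 3 comparisons. For SIS3 the log2 fold changes were -0.35 for Plod1 (95% CI -1.14 to 0.44), 0.29 for Plod2 (-0.48 to 1.05) and -0.02 for Plod3 (-0.74 to 0.70). For SB431542 they were -0.12 (-1.03 to 0.80), 0.11 (-0.76 to 0.98) and -0.12 (-0.96 to 0.71). For stage they were -0.41 (-1.33 to 0.50), -0.25 (-1.12 to 0.62) and 0.15 (-0.68 to 0.98). Over the 3 comparisons these intervals reach from -1.33 to 0.98. Without SIS3 library 1 the Plod2 value for SIS3 turned to -0.14 and that of Plod3 to 0.18, with no test. The E13.5 value of Plod3 rests on columns with 390 and 631 counts, whose squared difference was 56.9 times that of random division, and without the second column its stage value turned to -0.23.

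Summed over each family, the oxidases ranged widely and the hydroxylases little. The 5 oxidases together took 546 CPM in E12.5 DMSO, 404 CPM in SB431542, 167 and 179 CPM in the SIS3 libraries and 762 CPM at E13.5. The 3 hydroxylases together took 245, 257, 300 and 253, and 211 CPM. Within the oxidases the make-up per length also differed. Loxl2 made up 37.1% of the oxidase level in E12.5 DMSO, 53.2% in SB431542, 53.8% and 57.1% in the SIS3 libraries and 23.4% at E13.5. Loxl1 made up 25.8%, 20.1%, 6.08% and 4.45%, and 40.3%. Loxl3 reached 9.69% and 11.6% in the SIS3 libraries from 2.63% in E12.5 DMSO. A share also moves when the other oxidases do. The level of Loxl3 was 14.8 and 18.9 CPM in the SIS3 libraries against 14.3 CPM in E12.5 DMSO. That of Loxl2 was 242 CPM in SB431542 against 237 CPM. Lox itself stayed between 22.2% and 33.9% in all 5 libraries. Among the hydroxylases Plod2 was the largest part in every library, at 53.2% to 73.2%.

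**Figure D3:**
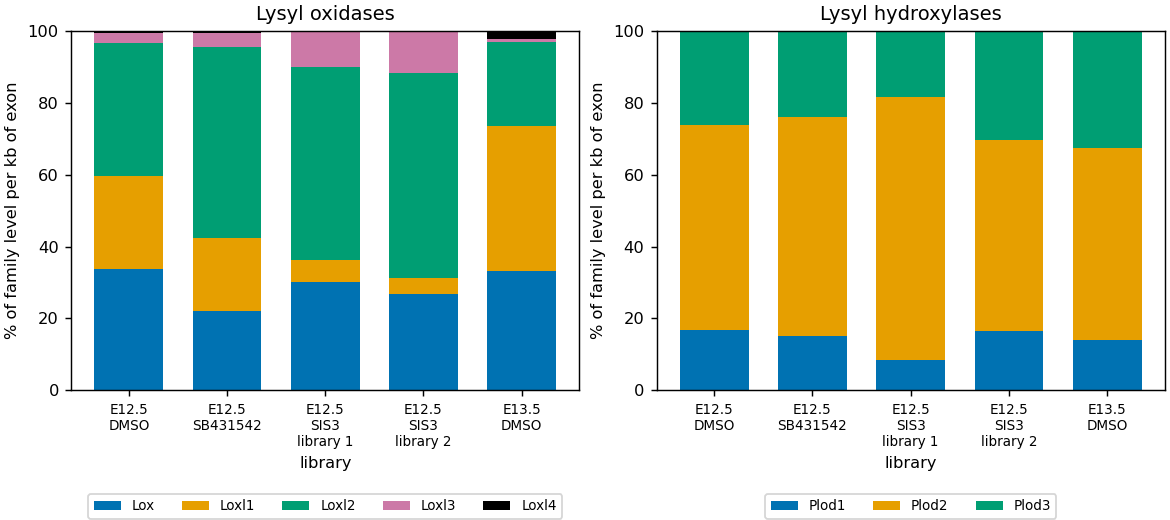
Share of each gene in the summed level of its family, in percent of CPM per kb of exon, for the 5 lysyl oxidases (left) and the 3 lysyl hydroxylases (right) in the 5 libraries. Loxl1 runs from 40.3% of the oxidase level at E13.5 to 4.45% in SIS3 library 2, while Plod2 is the largest hydroxylase part throughout.

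The partners and substrates of these enzymes were read from lists of the same pathway. Among the fibrillar collagens, the main substrates, 3 of 9 fell in the SIS3 libraries (median log2 fold change -0.75): Col1a1 (-2.53, SE 0.25), Col3a1 (-1.16) and Col5a1 (-1.14). The median was -0.39 in SB431542, with 0 called, and 0.65 at E13.5, with Col5a3 alone called higher (2.98). Elastic fibre genes, which include the elastin substrate of Loxl1, fell in 6 of 8 in the SIS3 libraries (median -1.25): Eln (-1.30), Fbn1 (-1.21), Fbln5 (-1.78), Ltbp4 (-2.37), Mfap4 (-1.51) and Emilin1 (-1.16). Their median was -0.89 in SB431542 and -0.11 at E13.5, with 0 of 8 called in both. Of these calls those of Col1a1 and Ltbp4 held in all 16 alternatives, Mfap4 lost its call under the filter on mean CPM of 5 alone, and the others were lost in 3 to 6.

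The intracellular partners were mostly not called. Of 10 genes of prolyl hydroxylation, such as P4hb (the shared subunit of prolyl 4-hydroxylase) and Ppib, 0 were called in any comparison, with medians of -0.27 for SB431542, -0.52 for SIS3 and -0.20 for stage. Among 7 glycosylation and endoplasmic reticulum partners 1 fell in the SIS3 libraries, Tmem38b, which encodes a cation channel of the endoplasmic reticulum that collagen modification needs: it stood at 2540, 2440 and 2210 CPM in the SMARTer libraries and 18.2 and 18.1 CPM in the TruSeq libraries. Fkbp10, the chaperone that works with Plod2, stood at 123, 86.5, 69.9 and 77.8, and 184 CPM and was not called. Serpinh1, the collagen chaperone Hsp47, stood at -0.14 for SIS3 (edgeR adjusted p = 0.866). In procollagen processing 2 of 9 fell in the SIS3 libraries, the N-proteinases Adamts2 (-1.81) and Adamts14 (-2.0), but these calls were lost in 6 and 8 of 16 alternatives. Bmp1, which activates Lox, stood at -0.46 for SIS3, -0.14 for SB431542 and -0.42 for stage and was not called. The copper genes Slc31a1, Atox1 and Atp7a, which supply the oxidases' cofactor, were not called either, with a median of -0.14 for SIS3 and -1.08 for stage. Of the 3 genes listed for other matrix crosslinks, 0 were called in any comparison, with medians of -0.53 for SB431542, -0.77 for SIS3 and 0.28 for stage.

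**Figure D4:**
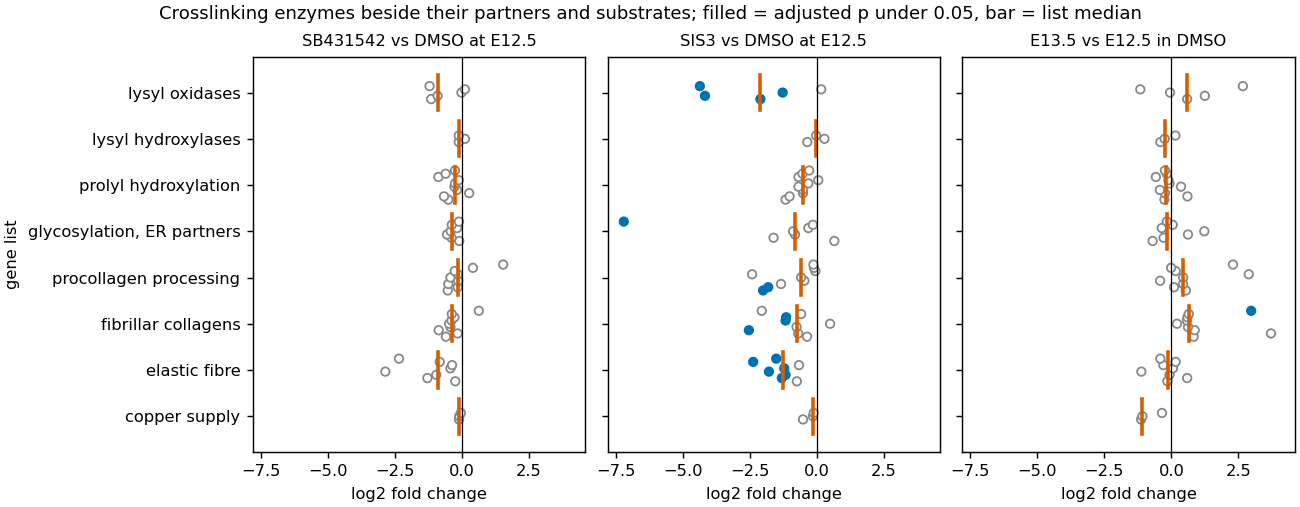
Log2 fold changes of the crosslinking enzymes and of 6 lists of partners and substrates in the 3 comparisons, 1 point a gene, filled for an adjusted p under 0.05, with a bar at the list median. In the SIS3 panel filled points lie among the oxidases, procollagen processing genes, fibrillar collagens and elastic fibre genes, and the point at -7.2 is Tmem38b.

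Ratios of counts within a library, which do not depend on depth or scaling, set the enzymes beside a substrate. For 100 reads of Col1a1, the main collagen I chain, there were 5.74 reads of Lox in E12.5 DMSO, 4.71 in SB431542, 7.87 and 7.51 in the SIS3 libraries and 4.69 at E13.5. The SIS3 libraries were thus highest for Lox, by a small margin. For Plod2 the same ratio was 4.19, 8.26, 36.3 and 22.4, and 1.92 reads, which is the widest span of the 6 members set against Col1a1. Plod1 (1.53, 2.58, 5.27 and 8.62, and 0.628 reads) and Plod3 (1.61, 2.69, 7.6 and 10.7, and 0.974 reads) had the same order of groups. Col1a1 itself ran from 606 to 5980 CPM, while no hydroxylase was called in any comparison. Loxl2 gave 7.10, 12.7, 15.8 and 18.1, and 3.73 reads. For 100 reads of Eln there were 69.9 reads of Loxl1 in E12.5 DMSO, 90.7 in SB431542, 9.71 and 9.51 in the SIS3 libraries and 110 at E13.5, so the SIS3 libraries held less Loxl1 for their elastin transcript than the other 3. Ratios between genes also carry gene length and, for SIS3, the kit.

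Genes known to answer Smad2/3 or hypoxia were set beside the members, since Lox and Plod2 are known targets of such signals. In SB431542 the feedback genes Pmepa1 and Skil stood at -1.93 and -1.88, further from 0 than any member, and 0 of 7 were called. In the SIS3 libraries Pmepa1 stood at -0.42 and Skil at 0.22, and the single call among the 7 was Ltbp2 (-3.10). Of 12 hypoxia genes 10 were in the table under these names, with 0 called in any comparison and medians of -0.07 for SB431542, -0.10 for SIS3 and -0.14 for stage. Among them Vegfa stood at 0.89 (edgeR adjusted p = 0.138) and Ldha at -1.03 (adjusted p = 0.0939) for SIS3.

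Markers of other cell types moved with the SIS3 libraries. All 8 endothelial markers fell, and their summed level was 40.9 and 37.0 CPM against 379 CPM in DMSO, 455 CPM in SB431542 and 418 CPM at E13.5. The 8 macrophage markers summed to 5.17 and 4.35 CPM against 53.2 CPM in DMSO, 39.8 CPM in SB431542 and 88.0 CPM at E13.5, with 4 called lower, C1qa at 0 in library 1, and C1qb and C1qc at 0 in library 2. The 6 osteoblast markers summed to 43.0 and 83.1 CPM against 303 CPM in DMSO, 167 CPM in SB431542 and 753 CPM at E13.5, and Sp7, Ibsp and Dmp1 were called lower. Pericyte markers summed to 378 and 393 CPM against 628 CPM in DMSO (2 of 6 called lower) and skeletal muscle markers to 256 and 208 CPM against 722 CPM (3 of 6 called lower). Neural and chondrocyte markers had 0 called. The 7 epithelial markers summed to 42.6 and 217.4 CPM in the SIS3 libraries and 163.9 CPM at E13.5 against 110.4 CPM in DMSO, and Shh among them was at 0 in SIS3 library 1 and at E13.5. The part of these cell types in the lower Lox, Loxl1, Loxl2 and Loxl4 was not tested. The osteoblast and macrophage sums were both lowest in the SIS3 group, then in SB431542, then in E12.5 DMSO, and highest at E13.5. That was the order of the Lox, Loxl1 and Loxl4 levels. Several matrix genes had it too, among them Col1a1 (610 and 606, 1900, 3330 and 5980 CPM), Col1a2, Col3a1, Col5a1 and Ltbp4. Eln and Col5a2 were among those that did not follow it. The order was thus not particular to the oxidases or to these marker lists. Single markers did not all follow this order. For stage 4 of 6 osteoblast markers lay above 0, with Sp7 and Bglap below. Ibsp alone gave 481 of the 753 CPM at E13.5. Of 8 macrophage markers 5 lay above 0, with C1qb, Tyrobp and Fcer1g below. Within the SIS3 pair both lists were split. The osteoblast sum was higher in library 2, chiefly through Alpl (70.9 against 30.9 CPM), with Sp7 and Ibsp slightly higher and Spp1 and Dmp1 lower. The macrophage sum was 4.35 against 5.17 CPM: C1qb, C1qc, Csf1r and Laptm5 were lower in library 2, and C1qa, Ptprc, Tyrobp and Fcer1g higher. Lox (45.5 against 48.0 CPM) and Loxl1 (5.2 against 6.67 CPM) differed little between the SIS3 libraries, and Loxl4 had 0 against 2 counts. Whether any difference within the pair reflects cell types was not tested.

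Profiles over the 5 libraries were also compared between genes, as the root mean square difference of log2 CPM after each gene was centred on its mean over the 4 groups. Among members the most alike were Plod1 and Plod3 (0.23) and the least alike Loxl3 and Loxl4 (3.03), and the nearest oxidase to Loxl1 was Loxl4 (0.75). Of the 12344 other genes that averaged at least 5 CPM (12345 for Loxl4), the nearest to Lox were Mxd3 (0.17), Txnip (0.21) and Zfp469 (0.23). The nearest to Loxl1 were Laptm5 (0.19), which is also in the macrophage marker list, Prelp (0.37) and Panx3 (0.37), and the nearest to Loxl4 were Abca4 (0.27), Ramp1 (0.59) and Phospho1 (0.60). Loxl2, Loxl3 and the Plod genes had a nearest gene at 0.01 to 0.05. The nearest of so many genes over 5 libraries is close by selection, so a near profile does not place a member in a cell type.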

How the data were processed

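The values are estimated counts per gene that the authors deposited as whole numbers, not scaled between libraries. Tools listed in the submitters' processing notes, with no role or version, are DESeq2, deepTools, HISAT2, Salmon and SAMtools, with the build mm10. How reads were assigned to genes is not given in those sources. Per the labels' protocols, total RNA went into SMARTer or, for SIS3 alone, TruSeq libraries.

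Columns were matched to samples by name. Pairs of columns that differed by about the sampling noise (ratio under 2, genes with at least 20 counts in the pair) were summed, which gave 5 libraries. That ratio is a median over genes, chosen after its values were seen, because near-identical gene copies dominate the mean. Counts went into edgeR 4.0.16 under R 4.3.3 (TMM, filterByExpr, robust quasi-likelihood F test, a term for group), with Benjamini-Hochberg adjustment over 19022 genes and a threshold of 0.05. Only the SIS3 pair gives a residual degree of freedom (1), plus 12.5 borrowed across genes, and lone libraries are assumed to vary like that pair. The scripts were tested on simulated counts. DESeq2 1.42.0 was an alternative. CPM uses the library total, while folds use TMM. Lengths, GC content and 31-mers come from GENCODE M21. The members and lists were chosen with earlier results of these data known. All members are named, with the called genes of each list, up to 4 others of it with the highest mean CPM, and the 3 genes nearest to a member in profile. Intervals from counts cover counting error only. Of 8 listed epithelial markers, 1 is not reported here and is left out of the sum given.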

Additional observations from a re-analysis of the deposited data

How the results depend on the processing

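Single members were recomputed with a test in 365 combinations of member, comparison and alternative: 324 gave the same call and direction, 13 lost and 16 gained a call, and 12 turned in direction. A further 48, without 1 SIS3 library, give values with no test: 2 of them changed sign, both without the first SIS3 library (Plod2 for SIS3 from 0.29 to -0.14, Plod3 from -0.02 to 0.18), and Loxl4 (-8.93 without that library) moved beyond the spread. The SIS3 library left in that case held 0 counts of Loxl4, so the size of -8.93 is not a measured fold. All 12 turns with a test were of values that were not called: Loxl2 for SB431542 with GC and length trends removed (0.01); Loxl3 for SB431542 without that group's first column (-0.10, against 0.29 without the second); Plod3 for SIS3 with DESeq2, with its size factors in edgeR and without receptor, predicted and pseudogenes (0.02 each), without the first E12.5 DMSO column (0.06; -0.26 to 0.18 without either SIS3 library) and with trends removed (0.20); Loxl2 for stage with the filter at 5 CPM (0.04), without those gene classes (0.01), with trends removed (0.03) and summed with its copies (0.11, chosen after seeing the data); and Plod3 for stage without the second E13.5 column (-0.23, against 0.46 without the first).

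Members called for SIS3 were 4 of 8, beside 3.82% of all genes. They were 3 with DESeq2 (675 of 19022 genes called), with trends removed (608 of 18881) and without any one SMARTer column. They were 2 without receptor, predicted and pseudogenes (326 of 15414) and with the 2 groups alone (232 of 15769). At 5 CPM they were 2 of 7 (130 of 12345), since Loxl4 was not tested there. For SB431542 they were 0, and 2 with 8 columns as replicates, without or with the replicate block (beside 1.46% and 0.468% of all genes). For stage they were 0, and 4 with 8 columns, without or with the replicate block. That is near the 54.9% and 52.2% of all genes called in those fits. They were 2 with no filter (beside 2062 of 27543 genes called), 1 with DESeq2 size factors (1206 of 19022) and 1 with trends removed (1043 of 18881). Without any one column they stayed at 0 in both. The replicate numbers did not pair the columns: deviations from group means correlated at -0.023 to 0.001 between groups.

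Genes called for SB431542 were 0, and 259 with 8 columns, 83 with the replicate block, 4 with DESeq2, 27 with no filter and 0 to 1 without 1 column. For SIS3 they were 727, and 6764 with 8 columns, 6194 with the replicate block, 1414 with no filter, 130 at 5 CPM, 326 without those gene classes, 232 with the 2 groups alone and 488 to 708 without 1 column. For stage they were 995, and 9742 with 8 columns, 9260 with the replicate block, 574 with DESeq2, 2062 with no filter, 192 at 5 CPM, 60 without those gene classes and 399 to 903 without 1 column (419 without the first and 399 without the second E13.5 column, 662 without the second E12.5 DMSO column). With trends removed the stage split was 574 higher and 469 lower against 772 and 223. The cause of these differences was not tested. Without a SIS3 library there is no residual degree of freedom and no count. At 1 library a side the 95% interval reached a median of 1.22 (SB431542) and 1.26 (stage) to either side on the log2 scale. These intervals carry no adjustment over all genes. Smaller differences were thus mostly not detectable, and larger ones could also miss the adjusted threshold. For SB431542 the smallest edgeR adjusted p of all genes was 0.272, and for stage Loxl4 at 2.67 was not called.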
